A study of Homo sapiens with 6 samples.

Results

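The enzymes examined here are the glucuronosyltransferases that inactivate androgens, UGT2B15, UGT2B17, UGT2B11 and UGT2B28, together with the steroid reductases SRD5A1 and SRD5A3 and the hydroxysteroid dehydrogenases HSD17B4, HSD17B10 and HSD17B11. They were taken by gene symbol, all 9 were among the 17297 genes of the count table, and each averaged at least 1 CPM (the count per 1000000 counts of its library). LNCaP is an androgen-responsive line of human prostate cancer cells. Cells stably carrying the retroviral plasmid pBabe with wild-type GNA13, which encodes the G protein subunit Gα13, were compared with cells stably carrying pBabe-vector, with 3 RNA-seq libraries per line. The vector line is labelled WT and the other GNA13 overexpression for genotype, and both were seeded alike and grown for 48 h in RPMI with serum, and the transduced cells were kept in puromycin. Each line is a single stable transduction, so the effect of GNA13 cannot be told apart from any other difference between these lines.

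Androgens act as unconjugated steroids, that is, without glucuronic acid attached. The SRD5A reductases convert testosterone to the stronger androgen dihydrotestosterone, the HSD17B enzymes oxidise or reduce the hydroxyl group that androgens and oestrogens need for activity, and the UGT2B enzymes of the endoplasmic reticulum attach glucuronic acid, after which the steroid is inactive and is exported. In prostate cells, UGT2B15 and UGT2B17 carry most of this last step, and their transcription is known to be lowered by androgen.

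GNA13 itself was at 820, 886 and 747 CPM in the 3 pBabe-GNA13 libraries and at 76.7, 69.4 and 65.4 CPM in the 3 vector libraries, or 3.54 higher on the log2 scale (SE 0.12, adjusted p = 9.12e-05 by edgeR). Library totals ran from 33002160 to 40628970 counts, so that a floor of 3 counts stood at 0.0715 to 0.0935 CPM. The column name of 1 pBabe-GNA13 library could not be matched to a sample of that line. It carries the tag std, as does 1 vector library, and is called the std library below. Markers of prostate luminal cells were abundant in both lines, with all 10 in the table and summed levels of 6862 to 9733 CPM in pBabe-GNA13 and 5946 to 8730 CPM in vector cells. None of the 4 leukocyte markers was in the table, and the 4 basal markers together reached 7.73 to 11.1 CPM in pBabe-GNA13 and 3.77 to 5.67 CPM in vector cells. The 4 fibroblast markers together reached 17.3 to 24.8 CPM in pBabe-GNA13 and 11.6 to 23.5 CPM in vector cells. The hepatocyte markers, of which 2 of 6 were in the table (ALB and SERPINA1), summed to 0.529 to 4.86 CPM in pBabe-GNA13 and 0.413 to 1.17 CPM in vector cells, and the part of these other markers in the results below was not tested.

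The UGT2B genes lie side by side on chromosome 4 (GRCh38), and their similarity limits how far their reads can be told apart. UGT2B17 spans chr4:68537173-68576413 and UGT2B15 chr4:68646597-68670652, both on the minus strand. UGT2B11 spans chr4:69199951-69214748 on the minus strand and overlaps a gene without a symbol on the opposite strand. UGT2B28 spans chr4:69280475-69295050 on the plus strand. The coding sequences of UGT2B15 and UGT2B17 were 96.5% identical, with 55 of 1593 positions differing, and those of UGT2B11 and UGT2B28 were 97.0% identical, with 47 of 1590 positions differing. Identity between a member of one pair and a member of the other was lower, at 84.1% to 85.1%. Of all 150-base windows of the main transcript, the length of 1 sequenced read, 4.74% for UGT2B15, 4.03% for UGT2B17, 1.38% for UGT2B11 and 0 for UGT2B28 occurred letter for letter in another UGT2 transcript. The longest run shared by the UGT2B15 and UGT2B17 coding sequences was 199 bases. UGT2B10, also in the table, was 95.0% identical to UGT2B11 in coding sequence. Their longest shared run was 149 bases, against 110 between UGT2B11 and UGT2B28. How reads with several matches were counted is not given in the sources used here, so the split of reads within each pair is uncertain. A sum of the pair lessens this only for reads split between its genes, not for reads dropped or shared with another gene.

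The stretch below shows where reads of UGT2B15 and UGT2B17 are easiest to separate. It was picked as the 120-base part of the coding sequence with the most differing bases, and is not typical. Over the whole coding sequence 55 of 1593 positions differ. It covers coding bases 256 to 375 of both genes, with the 14 differing bases in capitals, and lies in exon 1 of UGT2B15 at chr4:68670244-68670363 and in exon 2 of UGT2B17 at chr4:68568110-68568229, both on the minus strand of GRCh38.
UGT2B15: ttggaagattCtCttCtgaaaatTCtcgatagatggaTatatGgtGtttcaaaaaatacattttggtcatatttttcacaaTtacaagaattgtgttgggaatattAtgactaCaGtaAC
UGT2B17: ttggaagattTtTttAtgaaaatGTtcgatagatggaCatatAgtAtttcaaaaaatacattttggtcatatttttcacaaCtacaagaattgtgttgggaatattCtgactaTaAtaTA

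Promoters are shown for the UGT2B members that have an entry in the RefSeq promoter table (GRCh38.p14), UGT2B15 and UGT2B11, because both genes read lower in pBabe-GNA13 in every pair of libraries described below. The 250 bases before the start site are given, on the minus strand, at chr4:68670653-68670902 for UGT2B15 and chr4:69214749-69214998 for UGT2B11. Capitals mark matches to the searched motifs.
UGT2B15: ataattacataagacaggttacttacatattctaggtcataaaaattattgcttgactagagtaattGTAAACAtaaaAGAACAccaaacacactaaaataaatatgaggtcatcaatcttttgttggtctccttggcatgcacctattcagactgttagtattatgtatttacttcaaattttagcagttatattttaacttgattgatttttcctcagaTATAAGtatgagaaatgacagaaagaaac
UGT2B11: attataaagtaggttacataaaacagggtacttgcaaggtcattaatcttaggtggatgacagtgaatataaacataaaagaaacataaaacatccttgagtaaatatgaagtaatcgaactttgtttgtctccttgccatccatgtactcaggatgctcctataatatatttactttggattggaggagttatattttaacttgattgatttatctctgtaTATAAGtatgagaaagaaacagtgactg

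The 2 promoters aligned with 71.3% identity. The letters TATAAG, which match the core promoter box near the start of many genes, stood at positions -29 to -24 of UGT2B15 and -28 to -23 of UGT2B11, against a match in 5.03% of 35116 promoters. AGAACA, a half-site of steroid hormone response elements, matched UGT2B15 at positions -172 to -167, and 12.4% of all promoters held it. The forkhead letters TGTTTAC matched UGT2B15 on the opposite strand, where the printed strand reads GTAAACA (positions -183 to -177), and 2.98% of all promoters held them. The full element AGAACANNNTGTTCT was in neither and occurred in 1 promoter in all, and GTTAAT, the HNF1 half-site, was in neither and occurred in 6.23%. Both strands were searched and no 2 matches overlapped. Of the 9 genes, 7 had a promoter entry, and of the motifs searched the other 5 held none.

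Across the 9 genes, 0 were called changed between the lines by edgeR's quasi-likelihood test at an adjusted p under 0.05, against 0.139% of all genes. At an unadjusted p under 0.05 there were 2, UGT2B15 and UGT2B17, against 8.46% of all genes, and both were the lower, against 3.68%. The libraries were taken as 3 pairs across the lines, std with std, 2 with 2 and 3 with 3. The std library of pBabe-GNA13 also carries the number 2 and that of the vector line the number 1, so pairing by number alone would be ambiguous. The deviations of the std library from its line mean correlated at 0.659 with those of the vector std library and at -0.031 with those of vector replicate 2. With the pair as a replicate block 4 of the 9 were called, against 19.7% of all genes. All 4 fell in pBabe-GNA13 (UGT2B15, UGT2B17, UGT2B11 and HSD17B10), against 10.4% of all genes called lower, and 0 rose, against 9.32%. Without the std pair 4 were called, against 18.9% of all genes, and without pair 3 likewise 4, against 13%. Without pair 2 the count was 2, against 14.7%, and limma-trend with the same block called 0, against 2.5%. The refits without a pair hold only 2 pairs, so the spread of a gene is taken almost wholly from other genes. They reuse libraries of the full fit and are no independent check. The median log2 fold change was -0.67 over the 4 UGT2B genes and -0.10 over the other 5 genes, beside -0.0013 over all genes. Without the block, DESeq2 called 1, UGT2B17, against 1.68% of the 16122 genes to which it gave an adjusted p.

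UGT2B17, which glucuronidates testosterone and dihydrotestosterone, was at 28.2, 21.2 and 28.8 CPM in the std library and replicates 2 and 3 of pBabe-GNA13 and at 45.3, 50.0 and 64.5 CPM in vector replicates 1, 2 and 3. The 2 lines did not overlap, and all 3 pBabe-GNA13 libraries lay below the lowest vector library. The means were 26.1 ± 4.18 and 53.2 ± 10.0 CPM (SD, n = 3 each), so that the pBabe-GNA13 level was 49.0% of the vector level. In bulk RNA, fewer cells that express a gene and less of its RNA per cell cannot be told apart. The log2 fold change was -1.03 (SE 0.17, unadjusted p = 4.28e-04, edgeR adjusted p = 0.123), and with the replicate block it was -1.02 (SE 0.076, edgeR adjusted p = 1.00e-10). Its p-value ranked 59 of 17297 genes without the block. DESeq2 called it without the block (adjusted p = 1.12e-04), whereas limma-trend gave an adjusted p of 0.185 without and 0.0538 with the block.

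UGT2B15, which acts mainly on dihydrotestosterone and its reduced products, was at 25.8, 14.0 and 16.5 CPM in pBabe-GNA13 and at 31.5, 37.9 and 28.9 CPM in vector cells, in the same order of libraries. Again every pBabe-GNA13 library lay below every vector library, although the std library came close to vector replicate 3. The means were 18.8 ± 6.18 and 32.8 ± 4.68 CPM (SD, n = 3 each), or 57.3% of the vector level. Its log2 fold change was -0.80 (SE 0.23, unadjusted p = 0.00915, edgeR adjusted p = 0.367), and with the block it was -0.82 (SE 0.12, edgeR adjusted p = 6.01e-06). Within pairs the log2 difference was -0.29 for std, -1.43 for pair 2 and -0.81 for pair 3, so the size varied more between pairs than for UGT2B17, where it was -0.68, -1.23 and -1.16. With the block, DESeq2 gave UGT2B15 an adjusted p of 0.0492 (SE 0.31) and limma-trend 0.146 (SE 0.25). Both SEs are wider than the 0.12 of edgeR with the block. The edgeR SE draws on other genes and is not the spread between these 3 pairs. Of all genes, 2.61% had a log2 fold change at or below -0.8.

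**Figure D1:**
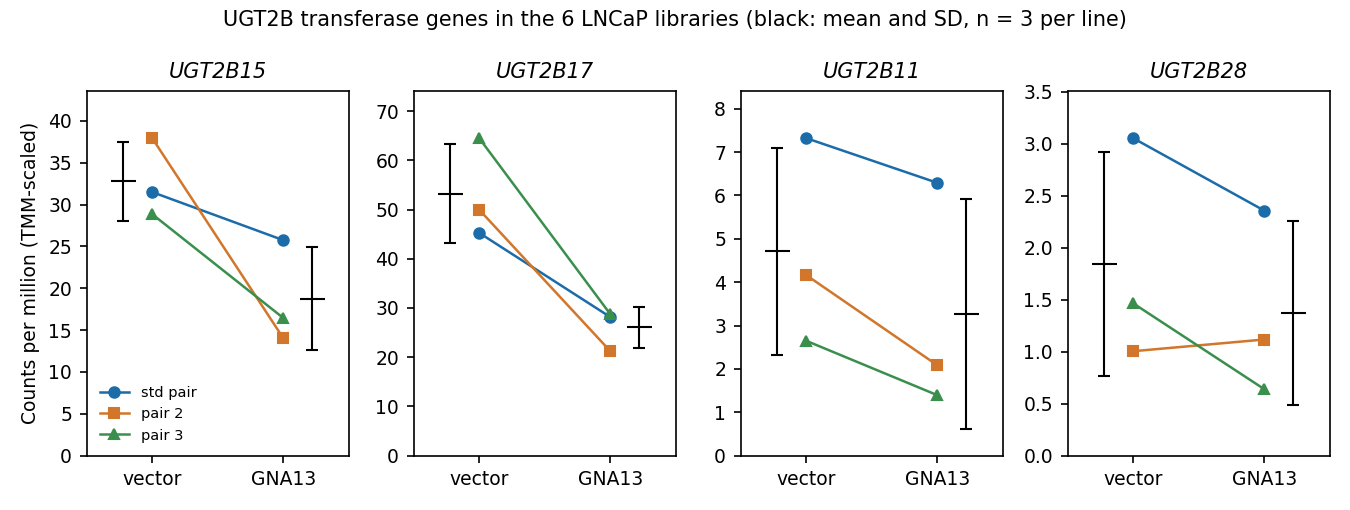
Levels of the 4 UGT2B genes in CPM (linear axes from 0) in the vector and pBabe-GNA13 libraries, with lines joining the 2 libraries of a pair and black marks for the mean and SD (n = 3 per line). UGT2B17 and UGT2B15 are lower in every pBabe-GNA13 library than in any vector library, while the lines overlap for UGT2B11 and UGT2B28.

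UGT2B11, a near relative of UGT2B28, was scarcer, at 6.29, 2.09 and 1.40 CPM in pBabe-GNA13 (235, 71 and 48 counts) and 7.32, 4.16 and 2.65 CPM in vector cells (307, 141 and 85 counts). The lines overlapped because both libraries tagged std stood above all the others, yet in each pair the pBabe-GNA13 library was the lower. The within-pair log2 differences were -0.22, -0.98 and -0.90 for std, pair 2 and pair 3. On the log2 scale the fold change was -0.53 (SE 0.58, edgeR adjusted p = 0.923) without the block and -0.63 (SE 0.17, edgeR adjusted p = 0.00713) with it. Without the block, leaving out 1 library moved the value from -1.43 without the std library of pBabe-GNA13 to -0.061 without vector replicate 1. The call with the block was lost without pair 2 (adjusted p = 0.0688) and with limma-trend and the block (adjusted p = 0.146).

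UGT2B28, which also accepts androgens, gave 2.36, 1.12 and 0.640 CPM in pBabe-GNA13 (88, 38 and 22 counts) and 3.05, 1.00 and 1.46 CPM in vector cells (128, 34 and 47 counts). Pair 2 went the other way from std and pair 3, with log2 differences of 0.15, -0.37 and -1.13. The fitted log2 fold change was -0.43 (SE 0.55, edgeR adjusted p = 0.952), and -0.44 (SE 0.24, edgeR adjusted p = 0.231) with the block. Without vector replicate 1 the direction turned, to 0.16, and without the std library of pBabe-GNA13 the value was -1.07. The difference was within the spread between libraries. UGT2B10, the only other UGT2B gene in the table, was at 1.71, 0.294 and 0.901 CPM in pBabe-GNA13 and 1.50, 1.09 and 1.81 CPM in vector cells, with a log2 fold change of -0.59 (SE 0.54, edgeR adjusted p = 0.910, with the block 0.125).

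Because reads can pass between near-identical genes, the pairs of paralogues were also summed. UGT2B15 and UGT2B17 together were at 53.9, 35.3 and 45.2 CPM in pBabe-GNA13 and at 76.8, 87.9 and 93.4 CPM in vector cells, with no overlap. The summed level was 52.1% of the vector level (log2 fold change -0.94, SE 0.16, edgeR adjusted p = 0.127), and with the block the log2 fold change was -0.95 (SE 0.084, edgeR adjusted p = 4.60e-09). DESeq2 called the sum without the block (adjusted p = 2.11e-04), and limma-trend did not call it with the block (adjusted p = 0.0811). With the block the SE was 0.25 by DESeq2 (adjusted p = 0.00163) and 0.18 by limma-trend, both wider than the 0.084 of edgeR. UGT2B11 and UGT2B28 together differed by -0.50 on the log2 scale (adjusted p = 0.926 by edgeR), and by -0.58 with the block (adjusted p = 0.00359). That call was lost without pair 3 (adjusted p = 0.0541) and with limma-trend and the block (adjusted p = 0.135). Leaving out 1 library at a time without the block moved the difference from -1.32 without the std library of pBabe-GNA13 to -0.0013 without vector replicate 1. All UGT2B genes in the table summed, UGT2B10 included, differed by -0.90 (SE 0.18, edgeR adjusted p = 0.178), and by -0.92 with the block (SE 0.086, edgeR adjusted p = 1.07e-08). With limma-trend and the block that sum was not called (adjusted p = 0.0843).

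Within the UGT2B reads, the mix of genes overlapped between the lines. UGT2B17 supplied 43.8%, 54.8% and 59.7% of all UGT2B counts in pBabe-GNA13 and 51.1%, 53.1% and 65.0% in vector cells, from totals of 1320 to 2401 and 3186 to 3717 counts. The ratio of UGT2B17 to UGT2B15 counts was 1.09, 1.51 and 1.75 in pBabe-GNA13 and 1.44, 1.32 and 2.24 in vector cells. The log2 ratio averaged 0.51 ± 0.35 and 0.69 ± 0.41 (SD, n = 3 each; exact two-sided permutation p = 0.70). In both lines the ratio was highest in pair 3.

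The 2 steroid reductases differed little between the lines. SRD5A1, the reductase of testosterone in tissues such as skin and liver, was at 47.1, 48.4 and 35.4 CPM in pBabe-GNA13 and 48.5, 51.1 and 40.6 CPM in vector cells. Each pBabe-GNA13 library was the lower of its pair, with log2 differences of -0.041 to -0.19, and the lines overlapped. This gave a log2 fold change of -0.10 (SE 0.15, edgeR adjusted p = 0.968, with the block 0.232). SRD5A3, which also reduces polyprenol for protein glycosylation, was at 47.2, 35.7 and 49.4 CPM in pBabe-GNA13 and 52.1, 40.6 and 49.1 CPM in vector cells. Its log2 fold change was likewise -0.10 (SE 0.15, edgeR adjusted p = 0.969, with the block 0.225), and pair 2 was the lowest pair in both lines. SRD5A3 overlaps SRD5A3-AS1 on the opposite strand (chr4:55346213-55373100), and reads of the 2 cannot be told apart without strand. It also overlaps FCF1P8 on the opposite strand and a gene without a symbol on the same strand, which strand would not separate. SRD5A1 lies at chr5:6633427-6674386 on the plus strand. SRD5A2 was not in the table analysed.

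HSD17B4, the peroxisomal enzyme of fatty acid oxidation that also oxidises oestradiol, was the most highly counted of the 9, at 359, 378 and 382 CPM in pBabe-GNA13 and 321, 345 and 353 CPM in vector cells. Every pBabe-GNA13 library lay above every vector library, by a mean of 373 ± 12.1 against 340 ± 16.4 CPM (SD, n = 3 each). On the log2 scale the lines differed by 0.13 (SE 0.092, edgeR adjusted p = 0.831), and with the block 0.14 (SE 0.049, edgeR adjusted p = 0.0540). Centring each chromosome in the blocked fit moved it past the threshold (adjusted p = 0.0453), as did the low-count filter filterByExpr with the block (adjusted p = 0.0462). HSD17B4 was not called with the block under the newer quasi-likelihood method, DESeq2 or limma-trend (adjusted p = 0.053, 0.067 and 0.0874). Nor was it called in the blocked edgeR fit without the std pair, pair 2 or pair 3 (adjusted p = 0.123 to 0.142).

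HSD17B10, a mitochondrial dehydrogenase that is also part of mitochondrial RNase P, was at 107, 83.8 and 106 CPM in pBabe-GNA13 and 114, 108 and 115 CPM in vector cells. The lines did not overlap, but by a margin of less than 1 CPM, and replicate 2 of pBabe-GNA13 stood well below the rest. The log2 fold change was -0.18 (SE 0.12, edgeR adjusted p = 0.808), and -0.19 with the block (SE 0.057, edgeR adjusted p = 0.0182). This call was lost without pair 2 (adjusted p = 0.316), when each chromosome was centred (adjusted p = 0.0675), and under DESeq2 and limma-trend with the block (adjusted p = 0.0607 and 0.194). HSD17B11, a lipid-droplet enzyme that oxidises androstanediol, was at 5.65, 3.64 and 2.30 CPM in pBabe-GNA13 and 4.75, 3.69 and 2.24 CPM in vector cells. It followed the pairs, with std highest and pair 3 lowest in both lines, and its log2 fold change was 0.11 (SE 0.38, edgeR adjusted p = 1, with the block 0.710). HSD17B4 spans chr5:119452465-119637199 on the plus strand (GRCh38). It overlaps FAM170A on the same strand and FABP5P6 and RPL21P58 on the opposite strand. HSD17B10 spans chrX:53431258-53434370 on the minus strand and overlaps a gene without a symbol on the same strand. HSD17B11 spans chr4:87336515-87391188 on the minus strand and overlaps RN7SL681P and a gene without a symbol on the same strand.

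**Figure D2:**
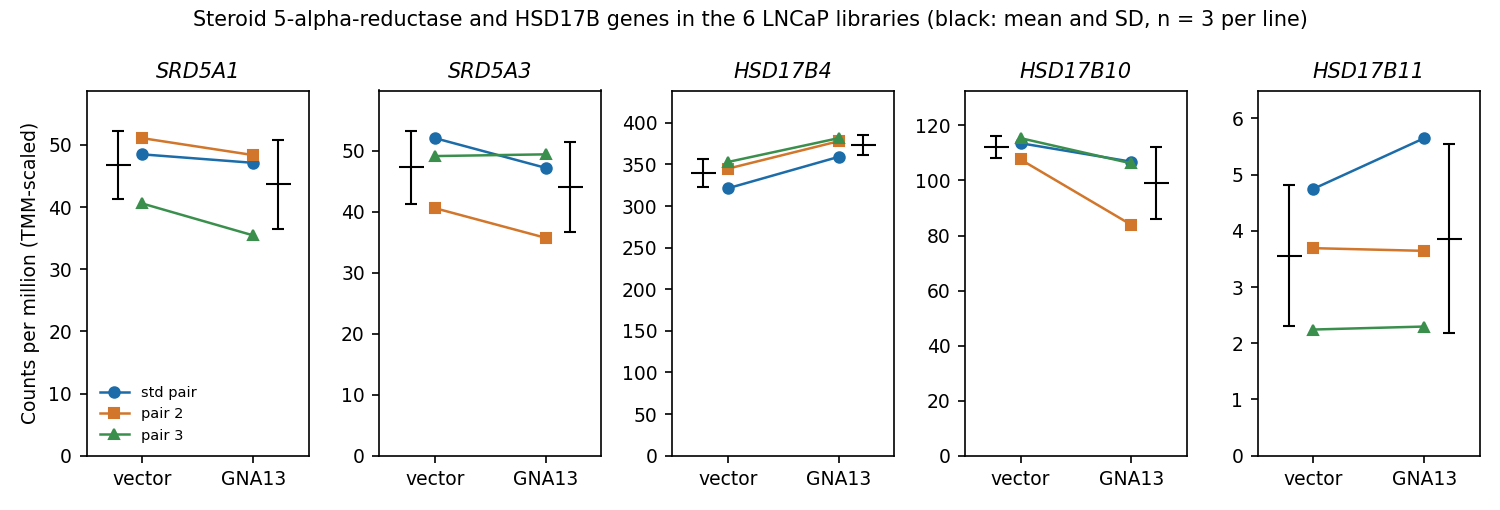
Levels of the 2 SRD5A and 3 HSD17B genes in CPM (linear axes from 0) in the vector and pBabe-GNA13 libraries, with lines joining the 2 libraries of a pair and black marks for the mean and SD (n = 3 per line). HSD17B4 is slightly higher and HSD17B10 slightly lower in pBabe-GNA13, and HSD17B11 differs more between pairs than between lines.

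Counting the 9 genes by direction, 4 did not overlap between the lines, against 14.1% of all genes, and 3 of these were the lower in pBabe-GNA13, against 6.79%. There were 5 genes lower in 3 of 3 pairs, against 25.3% of all genes (UGT2B15, UGT2B17, UGT2B11, SRD5A1 and HSD17B10). With 3 libraries on each side, the smallest two-sided p that exact permutation can give is 0.10, and UGT2B15, UGT2B17, HSD17B4 and HSD17B10 reached it. These are the same 4 genes as those without overlap, since lines that do not overlap always give this p, so it adds no further evidence. The log2 fold change was below 0 for 7 of the 9, against 50.3% of all genes.

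**Figure D3:**
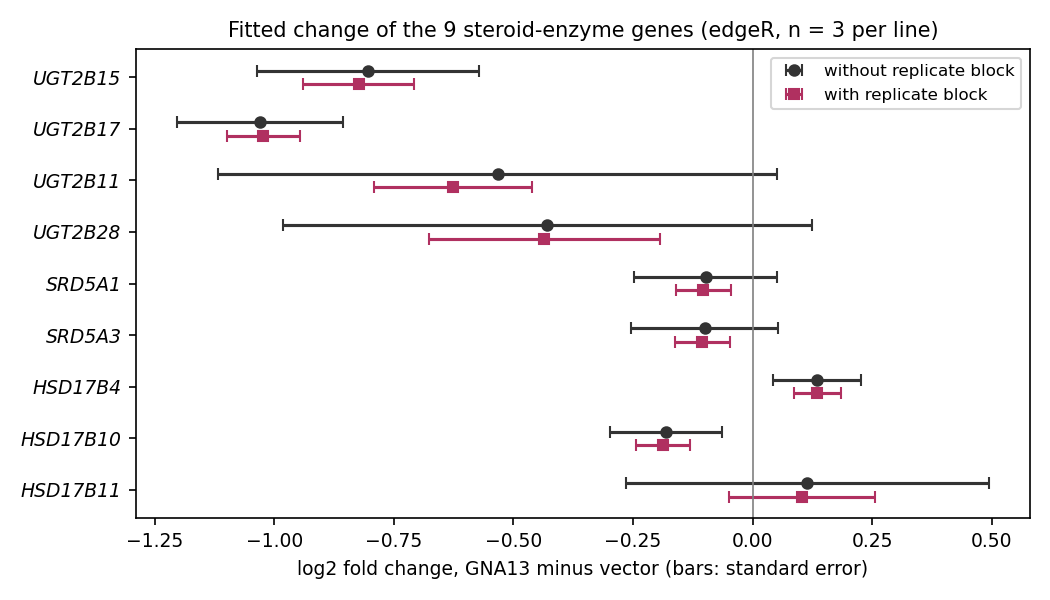
Log2 fold changes (pBabe-GNA13 minus vector) of the 9 genes on the x axis, from the edgeR fit without (circles) and with (squares) the replicate block. Bars show the standard error worked out from the F value of the test. The estimates hardly move with the block, from -0.53 to -0.63 for UGT2B11 at most, and the standard errors narrow, as from 0.17 to 0.076 for UGT2B17.

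**Figure D4:**
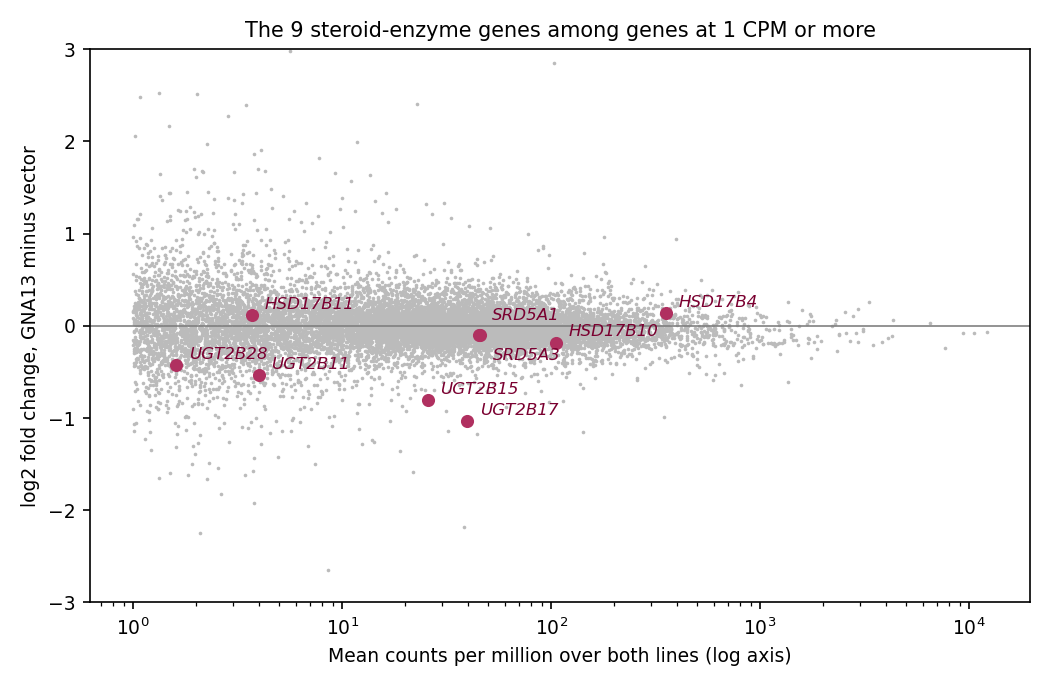
Log2 fold change without the block against the mean level in CPM over both lines (log axis) for 14059 genes at 1 CPM or more (grey) and the 9 steroid-enzyme genes (red), with 14 genes beyond a change of 3 on either side not drawn. UGT2B15 and UGT2B17 stand below most genes of their level, and the SRD5A and HSD17B genes lie near 0.

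Levels can be compared between the genes per kilobase of exon, which corrects for length. With the union of annotated exons as the length, the vector level fell from HSD17B10 at 39.8 ± 1.44 CPM per kb to UGT2B17 at 20.7 ± 3.90, UGT2B15 at 15.4 ± 2.19, HSD17B4 at 13.6 ± 0.66, SRD5A3 at 6.13 ± 0.77, SRD5A1 at 6.12 ± 0.72, UGT2B11 at 2.00 ± 1.01, HSD17B11 at 1.53 ± 0.54 and UGT2B28 at 0.991 ± 0.58 (SD, n = 3 each). The library values of neighbours overlapped from UGT2B17 to HSD17B4, between SRD5A3 and SRD5A1, and from UGT2B11 to UGT2B28. In pBabe-GNA13, HSD17B4 at 15.0 ± 0.48 CPM per kb stood above UGT2B17 at 10.1 ± 1.62. The place of HSD17B4 depended on the length chosen, since its exon union is 24901 bases and its canonical transcript 2628 bases, by which it ranked first in both lines, at 129 ± 6.26 CPM per kb in vector cells.

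The rest of the steroid pathway was read from 5 lists holding 78 other genes, 45 of them in the table. The edgeR test without the block called 0, against 0.139% of all genes, and 7 passed an unadjusted p of 0.05, against 8.46% of all genes. The block raised this to 9 (5 higher, 4 lower), which is 20.0% of the 45 and close to the 19.7% of all genes. Their median log2 fold change was -0.014. HSD17B2, HSD17B3, HSD3B1, HSD3B2, CYP17A1, STAR and the UGT1A genes were among those not in the table analysed.

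Among the other glucuronosyltransferases, only UGT2B10 and UGT8 were in the table. UGT8, which makes galactolipids of myelin, had 6, 13 and 22 counts in pBabe-GNA13 and 3, 2 and 3 counts in vector cells, and was called higher with the block (log2 fold change 2.26, edgeR adjusted p = 0.0168) but not without it (adjusted p = 0.346). Of the 9 genes that supply UDP-glucuronate or handle glucuronides, 1 was called with the block: UGP2, which makes UDP-glucose, at 46.4 ± 3.15 against 40.7 ± 1.85 CPM (SD, n = 3 each; log2 fold change 0.19, edgeR adjusted p = 0.0198). UGDH, the enzyme that oxidises UDP-glucose to UDP-glucuronate, was named after its values were seen and was at 105 ± 17.8 against 111 ± 12.5 CPM (SD, n = 3 each; edgeR adjusted p = 0.983, with the block 0.303).

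Of 10 genes of androgen synthesis in the table, FDXR, the reductase that feeds mitochondrial P450 enzymes, was called higher with the block (log2 fold change 0.25, edgeR adjusted p = 0.00650). CYP11A1, which cleaves the cholesterol side chain, was called lower (2.20 ± 0.091 against 3.49 ± 0.33 CPM, SD, n = 3 each; log2 fold change -0.66, edgeR adjusted p = 0.00582). Of 15 other reductases and dehydrogenases, RDH11, a retinal reductase of prostate epithelium, was called higher with the block (log2 fold change 0.30, edgeR adjusted p = 4.81e-05), and CBR4 (-0.25, edgeR adjusted p = 0.00308) and HSD17B8 (-0.18, edgeR adjusted p = 0.0424), the subunits of a mitochondrial ketoacyl reductase, were called lower. Of 9 genes of sulphation and other inactivation, CYP3A5, a P450 that hydroxylates testosterone, was called higher with the block (log2 fold change 0.87, edgeR adjusted p = 0.00751) and the sulphotransferase SULT1A1 lower (-0.17, edgeR adjusted p = 0.0469).

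Of a list of androgen-responsive genes and cofactors, 16 were in the table, and 0 of these were called without the block and 6 with it, or 37.5% against 19.7% of all genes. The list was not split by whether androgen raises or lowers a gene. The kallikrein KLK2 (log2 fold change 0.93, edgeR adjusted p = 3.19e-11), the prostaglandin dehydrogenase HPGD (1.31, edgeR adjusted p = 1.41e-08) and the acid phosphatase gene ACPP (0.40, edgeR adjusted p = 2.28e-05) rose with the block, as did SLC45A3 (0.31) and KLK3 (0.21). PMEPA1, an inhibitor of TGF-beta signalling, fell, with a log2 difference of -0.25 (adjusted p = 0.00173 by edgeR), and it, SLC45A3 and KLK3 were named after their values were seen. Over the list the median log2 fold change was 0.12, with 13 of 16 above 0, beside -0.0013 and 8411 of 17297 over all genes. The 13 include FOXA1, HOXB13 and NCOA2, which were listed as cofactors and not as androgen-responsive genes.

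Genes on either side of the UGT2B cluster were read as well. The 533 chromosome 4 genes had a median log2 fold change of -0.025. The 5 nearest genes on either side of the cluster that averaged at least 1 CPM ranged from -0.16 for NOA1 to 0.29 for RUFY3. Not all of them lie close by, since NOA1 spans chr4:56963350-56977606 and UGT2B17 begins at chr4:68537173. YTHDC1 (chr4:68310387-68350090) and UTP3 (chr4:70688532-70690551) were the closest on their sides. With the block, NOA1 was called lower (edgeR adjusted p = 0.0346) and RUFY3 higher (edgeR adjusted p = 0.00441), both named after their values were seen.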

How the data were processed

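RNA of the 6 LNCaP cultures was read as 150-nucleotide pairs, and the authors mapped the reads with STAR to Gencode 38 and made gene counts with featureCounts. The deposited values are whole-number counts per gene symbol, not normalised, although the table is named for CPM. Of its symbols, 1499 are clone names that begin with RP11-, an older naming style, so the annotation behind the counts may differ from the one stated, and with it gene lengths and which genes are listed. Whether strand was used is not given in the sources used here. Each sample was placed in its line by its title, and the std library of pBabe-GNA13 by its column name. Counts were scaled by TMM and tested with edgeR 4.0.16 (legacy quasi-likelihood, no filter, Benjamini-Hochberg adjustment over 17297 genes, called at an adjusted p under 0.05), and CPM uses the TMM totals. Log2 values of single libraries add a prior count of 2. The SE given for edgeR is the size of the log2 fold change divided by the square root of the F value of its test. A replicate block took pairs from the tag or number in the column names. With 3 pairs this fit has little data for the spread of a single gene, so edgeR draws it largely from other genes. Its SEs and p-values with the block do not measure the spread between the pairs of that gene. Deviations from the line means correlated at 0.659, 0.807 and 0.888 within pairs and at -0.736 to 0.125 across them, over 12778 genes, so the libraries were treated as paired. Deviations cancel over the 3 libraries of a line, so high correlations within pairs draw those across pairs down. The same counts served for this check and for the blocked fit. DESeq2 1.42.0 and limma 3.58.1 were alternatives, run in R 4.3.3. Replicates were labelled biological, and counting floors cover counting error only. The model was also run on counts simulated from its own fit. Known changes were placed only in genes of higher counts, which leaves out UGT2B11, UGT2B28 and HSD17B11. Such a run cannot show whether the pairing or the error rates of the blocked fit hold in the real counts.

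Coordinates, exons and coding sequences came from Gencode 44 (GRCh38), to which 14464 symbols matched by name or older symbol, and promoters from RefSeq. Named are the 9 genes, GNA13, the other UGT2B genes in the table, from each gene list the genes called without the block and, of those called with it alone, the 3 of smallest p, and the 5 genes most alike to the UGT2B sum; exceptions are marked. The genes and lists were chosen with earlier results of these data known. One gene of the lists is not reported here.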

Additional observations from a re-analysis of the deposited data

How the results depend on the processing

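Counts limit UGT2B11, UGT2B28 and HSD17B11 most, with 22 to 307 reads per library. The block takes the tag and numbers in the column names as pairs, which the labels do not explain. With the replicate block the count of the 9 genes called rose from 0 to 4, of all genes from 24 to 3407 and of the 45 steroid pathway genes from 0 to 9, and the UGT2B15 and UGT2B17 sum, at -0.95, passed the threshold. DESeq2 without the block called 1, 271 and 0 and also passed the sum, at -0.94, and limma-trend called 0, 5 and 0. With each chromosome centred in the blocked fit the counts were 4, 2425 and 6 (sum -0.92). The following settings were chosen after seeing the data. Those without a pair reuse the other libraries and rest on 2 pairs, so their counts are no independent check. The block without the std pair gave 4, 3266 and 9 (sum -1.18), without the pair of number 2 it gave 2, 2550 and 6 (sum -0.78), and without the pair of number 3 it gave 4, 2250 and 5 (sum -0.89). The block with DESeq2 gave 3, 2000 and 3 (sum -0.96), with filterByExpr 5, 3078 and 6 (sum -0.94), with the newer quasi-likelihood method 4, 3129 and 7 (sum -0.95), and with limma-trend 0, 433 and 0. Leaving out 1 library at a time without the block left 2 to 15 genes called and 0 of the 9, and the fewest remained without the std library of pBabe-GNA13. Over these refits the log2 fold change ran from -1.14 to -0.87 for UGT2B17, from -1.09 to -0.63 for UGT2B15 and from -1.09 to -0.79 for their sum. It reversed to 0.16 for UGT2B28 without vector replicate 1 (range -1.07 to 0.16), to 0.038 for SRD5A1 without pBabe-GNA13 replicate 3 (range -0.19 to 0.038), to 0.031 for SRD5A3 without pBabe-GNA13 replicate 2 (range -0.20 to 0.031), and for HSD17B11 to -0.26 without the std library of pBabe-GNA13 and to -0.13 without vector replicate 3 (range -0.26 to 0.39). None of these was called. UGT2B11 ran from -1.43 without the std library of pBabe-GNA13 to -0.061 without vector replicate 1. In all, 175 of 180 fold changes of the 9 genes under alternatives kept their direction, and all 5 that reversed came from leaving out 1 library. Many of the alternatives refit the same libraries with another method, where a reversal is less likely. The share is therefore no measure of robustness. The order of levels per kb changed in 3 places with the longest transcript and in 4 with the canonical transcript as length. Where the cause of a change is not given by the setting, the cause was not tested.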

Other observations

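The genes whose log2 CPM over the 6 libraries tracked that of the summed UGT2B15, UGT2B17, UGT2B11 and UGT2B28 counts most closely, of 14054 genes at 1 CPM or more, were GMFB, PKN3, GSS, EPHA7 and NCEH1, with Pearson correlations of 0.995, 0.991, 0.991, 0.989 and 0.984. The points share the same 2 lines and 3 pairs, and the highest values among so many genes are given as a description only. GSS, the last enzyme of glutathione synthesis, was at 119 to 140 CPM in pBabe-GNA13 and 156 to 166 CPM in vector cells. EPHA7, an ephrin receptor, was at 51.7 to 63.6 CPM in pBabe-GNA13 and 84.2 to 86.7 CPM in vector cells. The edgeR adjusted p was 0.143 for EPHA7 and 0.395 for GSS without the block, and 1.97e-08 and 8.25e-05 with it.

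Some markers of other cell types were called with the block. The basal keratin KRT5 averaged 2.27 CPM in pBabe-GNA13 and 0.388 CPM in vector cells (edgeR adjusted p = 0.709, with the block 7.20e-07), KRT14 4.38 and 2.03 CPM (0.142, with the block 1.71e-05), the collagen COL1A2 1.70 and 0.0471 CPM (0.372, with the block 2.14e-08), and the hepatocyte marker ALB 2.45 and 0.534 CPM (0.703, with the block 7.93e-06). These 4 were higher in pBabe-GNA13. The other fibroblast markers were not called: COL1A1, the most abundant, was at 18.6 and 19.2 CPM, LUM at 0.0939 and 0.137 CPM and DCN at 0.0760 and 0.00795 CPM (with the block, adjusted p = 0.964, 0.755 and 0.314). UGT2B15 and UGT2B17 read lower, and the part of other cells in either was not tested. The luminal keratins KRT8 and KRT18 were called higher with the block (edgeR adjusted p = 3.96e-05 and 5.04e-04). These marker genes were named after their values were seen.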
